A study of Danio rerio with 5 samples.

Results

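The set described here holds 10 interferon and innate immune genes of the zebrafish (Danio rerio): ifnphi1, stat1b, irf9, irf7, isg15, pkz, mxa, rsad2, cxcl20 and nitr8. They were chosen by name, with their differences between the groups already known, to ask whether the higher ifnphi1 signal after gata5 and gata6 knockdown came together with higher signals of the genes that respond to interferon. All 16 probes of these 10 genes were taken, out of 43603 probes on the array, of which 25598 could be given 1 of 13143 gene symbols. Because the same contrast was used to choose them, the 10 genes are described by their values. Their calls in the fit over all genes are given as a description and are not a test of them.

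The samples were whole embryos at 14 h post fertilization, injected at the 1-cell stage with 1 nl of morpholino, a synthetic antisense oligonucleotide that blocks translation or splicing of its target RNA. Embryos of 3 arrays carried 7.5 ng of a control morpholino (control MO). Those of the other 2 arrays, the knockdown group, carried 6.25 ng of gata5 morpholino plus 1.25 ng of gata6 morpholino (gata5/6 MO), so that the total dose was 7.5 ng in both groups. The series held no array of uninjected embryos. The labels give the combination as a way to lower gata4, gata5 and gata6 together. On these arrays gata4 was lower by a log2 difference of -0.64 (limma, adjusted p = 0.00520), whereas gata5 was 3.95-fold higher (limma, adjusted p = 0.000191) and gata6 was 7.21-fold higher (limma, adjusted p = 5.76e-05). A morpholino that blocks translation need not lower its target RNA, so the RNA level alone does not measure the knockdown. Whether the morpholinos used block translation or splicing is not given here. The cause of the higher gata5 and gata6 RNA was not tested.

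Interferons are secreted proteins that cells make when they sense viral nucleic acid or other danger. In zebrafish, the type I interferon encoded by ifnphi1 binds a receptor that contains crfb1, and the signal passes through JAK kinases to STAT proteins and IRF9, which switch on antiviral effector genes such as isg15, mxa, rsad2 and pkz. At this stage the embryo has no mature lymphocytes, and its first macrophages arise from anterior lateral mesoderm during somitogenesis. Work in zebrafish has also shown that morpholinos themselves can raise isg15 and p53 target genes. Both groups here carried morpholino.

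Levels are given as the processed signal of each array in intensity units, and group means as the log2 of that signal relative to the array's 75th percentile (506 to 574 intensity units). All differences are gata5/6 MO minus control MO on that log2 scale. The 5 arrays correlated with each other at 0.979 to 0.998 across genes, no spot was saturated, and 70.1% to 71.1% of probes were well above background on each array. The lowest signal of any probe well above background lay between 9.49 and 12.3 intensity units. A probe below it has only an approximate bound. All 3 control arrays shared 1 slide and 1 scan and both gata5/6 MO arrays shared another, so slide and group cannot be told apart. The labels do not say whether replicates came from separate clutches, and the spread between them may be technical. The median SD of a gene was 0.0654 among control arrays and 0.170 between the gata5/6 MO arrays.

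For 9 of the 10 genes, a probe exceeded the background level throughout 1 group or both. In the fit over 10792 genes, 3 of these 9 were called higher in gata5/6 MO embryos (ifnphi1, cxcl20 and nitr8), 3 were called lower (isg15, pkz and stat1b) and 3 were not called (irf9, irf7 and mxa). Across all genes tested 15.0% were called, 7.84% higher and 7.17% lower. The genes were picked on this contrast, so nothing is read from the set's share. Both gata5/6 MO arrays lay above all controls for 3 of the 9 genes (29.0% of all genes tested), below all controls for 3 (21.8% of all genes) and overlapped them for 3 (50.9% of all genes did not overlap). Among the 7 genes of the set that act downstream of interferon, 6 could be measured. None of those 6 was called higher, 4 had a negative difference and 2 a positive one. Their median difference was -0.40, beside 0.04 over all genes tested. These 6 genes too were chosen with their differences known, so nothing is read from the signs or the median.

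**Figure D1:**
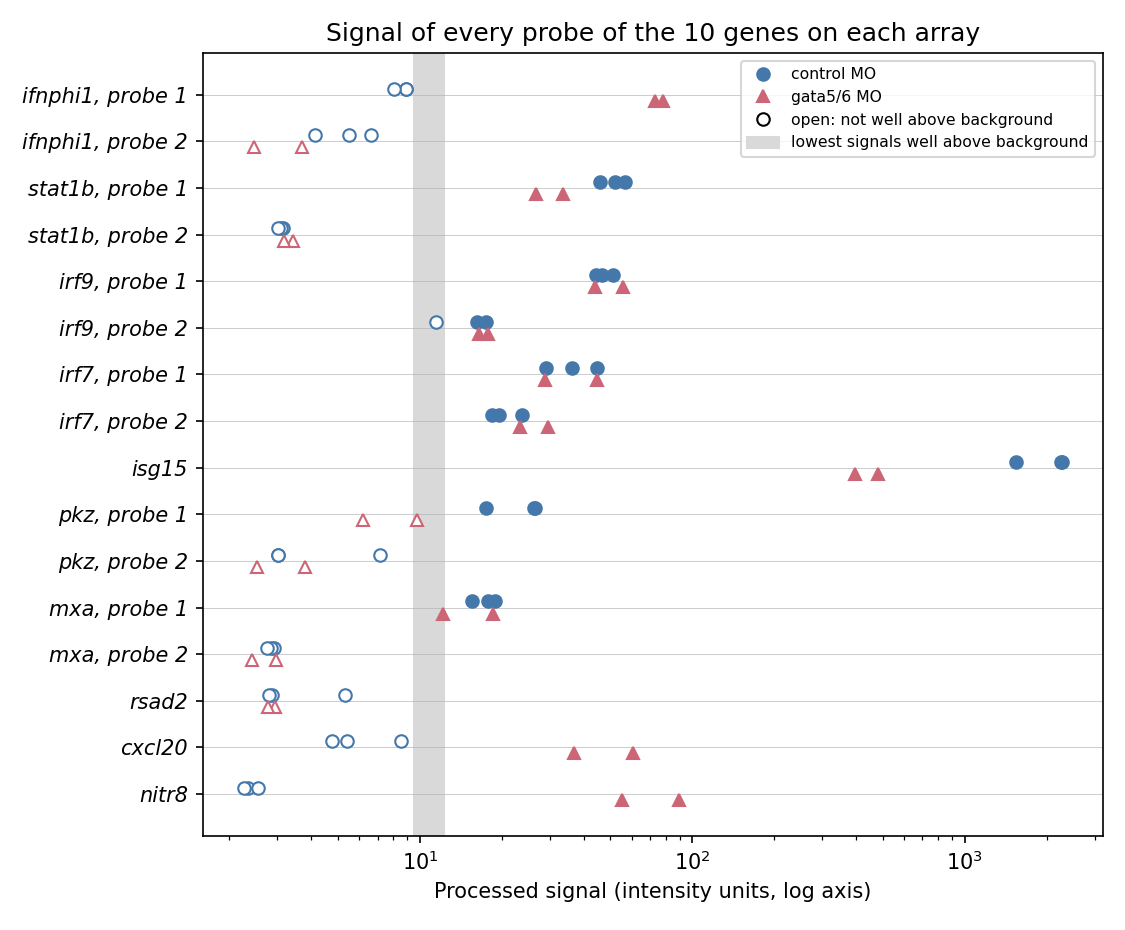
Processed signal (intensity units, log axis) of each of the 16 probes of the 10 genes on the 3 control MO arrays (circles) and the 2 gata5/6 MO arrays (triangles); open symbols are not well above background, and the grey band spans the lowest signals that are. The higher gata5/6 MO signals of ifnphi1 probe 1, cxcl20 and nitr8 sit to the right of the band while their control signals sit to its left, whereas isg15, pkz probe 1 and stat1b probe 1 have their triangles to the left of their circles.

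The ligand gene, ifnphi1, was measured by a pair of probes for the same transcript. The brighter probe read 8.88, 8.91 and 8.03 in the control arrays and 72.9 and 78.1 in the gata5/6 MO arrays. It was above background on no control array and on both gata5/6 MO arrays, and the groups did not overlap. Its mean was -6.05 ± 0.07 (SD, n = 3) in control embryos and -2.82 ± 0.04 (SD, n = 2) in gata5/6 MO embryos. The fitted difference was 3.22. With the control arrays set to the lowest signal of any probe well above background, the signal was at least 7.20-fold higher after knockdown, an approximate bound. In size the fitted difference exceeded that of 99.6% of the genes tested. The gene was chosen with this difference known, so nothing is read from that rank.

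The other ifnphi1 probe did not show this. It read 5.50, 4.14 and 6.60 in control arrays and 3.69 and 2.46 in gata5/6 MO arrays, above background on none of the 5, and its difference was -0.73 with overlapping groups. The higher level of ifnphi1 therefore rests on 1 of its 2 probes. The size also depends on the processing. The normexp settings started from each spot's median signal and median local background, not the processed signal, and added an offset of 50. Such an offset shrinks the difference of a dim probe by construction. With normexp correction as fitted by default the difference was 0.53 in place of 3.22 and ifnphi1 was not called, and with a normexp fit limited to spots above their local background, chosen after seeing the data, it was 1.09 and ifnphi1 was called. In whole embryos, a changed number of cells that make an RNA and a changed amount of it per cell cannot be told apart. This holds for ifnphi1 and every gene below.

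Of the other interferon genes, 5 were on the array with 5 probes, of which 3 were above background on no array. The type I interferon gene ifnphi4 differed by 0.67 ± 0.25 (SE), above background on 1 control array and both gata5/6 MO arrays, and did not pass the test (limma, adjusted p = 0.135), although it did without control replicate 1 (0.92). The difference of ifnphi3 was -0.46 ± 0.19 (SE) and did not pass either (limma, adjusted p = 0.168), although it did without gata5/6 MO replicate 2 (-0.80). No probe of ifnphi2, ifng1 or ifng1r was above background on any array.

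Of the signal transducers downstream of the receptor, stat1b was lower, while irf9 and irf7 were not called. The gene stat1b encodes a protein of the family that carries the signal to the nucleus. Its brighter probe read 52.0, 45.8 and 56.6 in control arrays and 26.6 and 33.5 in gata5/6 MO arrays. Both knockdown arrays lay below all controls, with means of -3.47 ± 0.17 (SD, n = 3) and -4.16 ± 0.13 (SD, n = 2) and a difference of -0.69 (1.61-fold lower). Its second probe was above background on no array, between 3.01 and 3.43 throughout, and is no second measurement of the change. With the limited normexp fit the difference was -0.21 and stat1b was no longer called, nor was it with the default fit (-0.62), nor was it called without control replicate 1, control replicate 3 or gata5/6 MO replicate 1.

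The gene irf9 encodes the DNA-binding partner of the STAT proteins in the interferon response. Its brighter probe read 51.1, 44.4 and 46.6 in control arrays and 55.6 and 43.9 in gata5/6 MO arrays, so that the groups overlapped and the difference of 0.16 was smaller than the SD of 0.35 between the knockdown arrays. The dimmer probe read 16.2, 11.5 and 17.5 against 16.5 and 17.7 and was above background on 4 of 5 arrays. Relative to the 75th percentile both knockdown arrays lay just above the controls for that probe, with a difference of 0.30. Without gata5/6 MO replicate 2, irf9 was called higher (0.40), and without gata5/6 MO replicate 1 its difference was -0.09.

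The gene irf7 encodes the factor that amplifies interferon production and is itself raised by interferon. Its brighter probe read 44.8, 29.1 and 36.3 in control arrays and 44.5 and 28.8 in gata5/6 MO arrays. The groups overlapped over most of their ranges, with a difference of 0.08. The dimmer probe read 23.8, 18.4 and 19.5 against 29.5 and 23.3, with a difference of 0.45, and it was above background on all 5 arrays. The sign of irf7 was not stable, with the brighter probe at -0.31 without gata5/6 MO replicate 1 and at 0.47 without gata5/6 MO replicate 2.

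Among the effectors, isg15 was lower in the knockdown embryos. It encodes a ubiquitin-like protein that is attached to other proteins during the antiviral response. Its single probe read 2270.3, 1550.3 and 2250 in control arrays and 479.5 and 396.7 in gata5/6 MO arrays. Every knockdown array lay below every control array, by far more than the spread within either group. The means were 1.81 ± 0.33 (SD, n = 3) and -0.29 ± 0.30 (SD, n = 2), a difference of -2.10 (4.29-fold lower). All arrays were far above background, and the difference stayed between -2.32 and -1.86 under all the alternative settings tried, although isg15 was not called with the default normexp fit or with a variance for each group.

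The kinase gene pkz encodes a fish relative of PKR that binds Z-form nucleic acid and halts translation. Its brighter probe read 26.5, 17.5 and 26.4 in control arrays and 6.17 and 9.79 in gata5/6 MO arrays. It was above background on all 3 control arrays and on neither knockdown array, so the control signal exceeded that of the knockdown by at least 2.02-fold, with a fitted difference of -1.48. The other probe, between 2.53 and 7.17, was above background on no array. With the limited normexp fit the difference of pkz was -0.15 and it was not called, nor was it with the default fit (-0.63), nor was it called without control replicate 3 or without gata5/6 MO replicate 1.

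Of the remaining effectors, mxa encodes a dynamin-like GTPase that traps viral particles. Its brighter probe read 17.8, 15.5 and 18.8 in control arrays and 12.2 and 18.6 in gata5/6 MO arrays. These signals were low but above background, and the groups overlapped with a difference of -0.11, which became 0.11 without gata5/6 MO replicate 1. The second mxa probe was above background on no array. The radical-SAM enzyme gene rsad2, known as viperin, had 1 probe, which read 5.32, 2.87 and 2.79 against 2.93 and 2.77. None of these signals exceeded background, so a change in rsad2 at these levels was not detectable.

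The chemokine gene cxcl20 and the receptor gene nitr8 were, like ifnphi1, above background in the knockdown group alone. The cxcl20 probe read 5.38, 4.75 and 8.50 in control arrays and 60.4 and 37.0 in gata5/6 MO arrays. Both knockdown arrays lay above all controls, with a fitted difference of 3.07 that amounts to at least 4.51-fold. The nitr8 probe, for an immunoglobulin-domain receptor of a fish family related in function to natural killer cell receptors, read 2.34, 2.54 and 2.25 in control arrays and 89.2 and 55.0 in gata5/6 MO arrays. Its fitted difference of 4.97 is against a control level below background, and the bound was at least 6.69-fold. Both were smaller after normexp correction with its offset. With the limited fit cxcl20 was at 0.83 and nitr8 at 1.26. With the default fit they were at 0.25 and 0.65, and neither was called. Each of these genes has a single probe here, so no second probe bears on them.

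**Figure D2:**
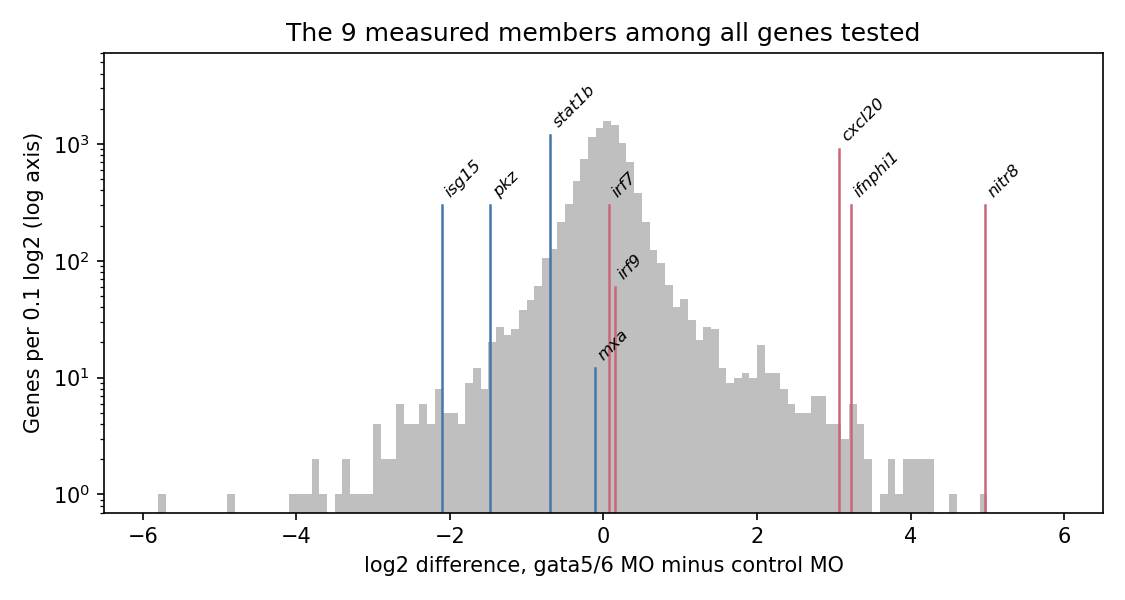
Distribution of the log2 difference (gata5/6 MO minus control MO) over the 10792 genes tested, with the number of genes per 0.1 log2 on a log axis and the 9 measured genes of the set marked by lines. The lines of nitr8, ifnphi1 and cxcl20 stand at 4.97, 3.22 and 3.07 in the upper tail, isg15 stands at -2.10 in the lower tail, and mxa, irf7 and irf9 stand near 0.

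The families of these genes gave few other measurements. The array held 16 further genes of the nitr family with 26 probes, of which 20 were above background on no array and 3 on all arrays. Only nitr9 and nitr12 could be tested, with differences of 0.24 (limma, adjusted p = 0.402) and -0.13 (limma, adjusted p = 0.475). Without gata5/6 MO replicate 2, nitr9 passed at 0.54. Among the other Mx genes, chosen for mention after their values were seen, mxc differed by -0.06 (limma, adjusted p = 0.663) and mxb by 1.03, above background on 1 control array and both knockdown arrays (limma, adjusted p = 0.0752). The mxc value comes from a probe with a control mean of 5.36. Its other probes, with control means of -7.82 and -7.51, were above background on no array, so the value rests on the bright probe alone. The mxg probe was above background on no array. The mxe probe was above background on 1 array, with a difference of 1.59, and did not enter the test.

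The rest of the interferon pathway was read from 5 lists without the 10 genes: interferon genes, receptors and JAK-STAT signalling, interferon regulatory factors, nucleic acid sensors with their adaptors, and interferon-stimulated effectors. The list of sensors also holds Toll-like receptors that do not sense nucleic acid, such as tlr5b. Of 72 genes on the array, 53 could be tested, 2 were higher (3.77%), 11 were lower (20.8%) and 40 did not pass. Over all genes tested, 7.84% were higher and 7.17% lower. The median difference of the 53 was -0.13, beside 0.04 over all genes. The lists were chosen with earlier results of these data known, so nothing is read from their shares or medians, here or below. With a variance for each group 3 genes were lower. Leaving out gata5/6 MO replicate 2 raised the count of lower genes to 21 and leaving out control replicate 1 reduced it to 4, while the count of higher genes ranged from 2 to 6. Without control replicate 2 or control replicate 3 there were 5 lower genes. The count of lower genes over the whole array moved likewise, from 774 to 2166 without gata5/6 MO replicate 2 and to 339, 364 and 314 without control replicates 1, 2 and 3.

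**Figure D3:**
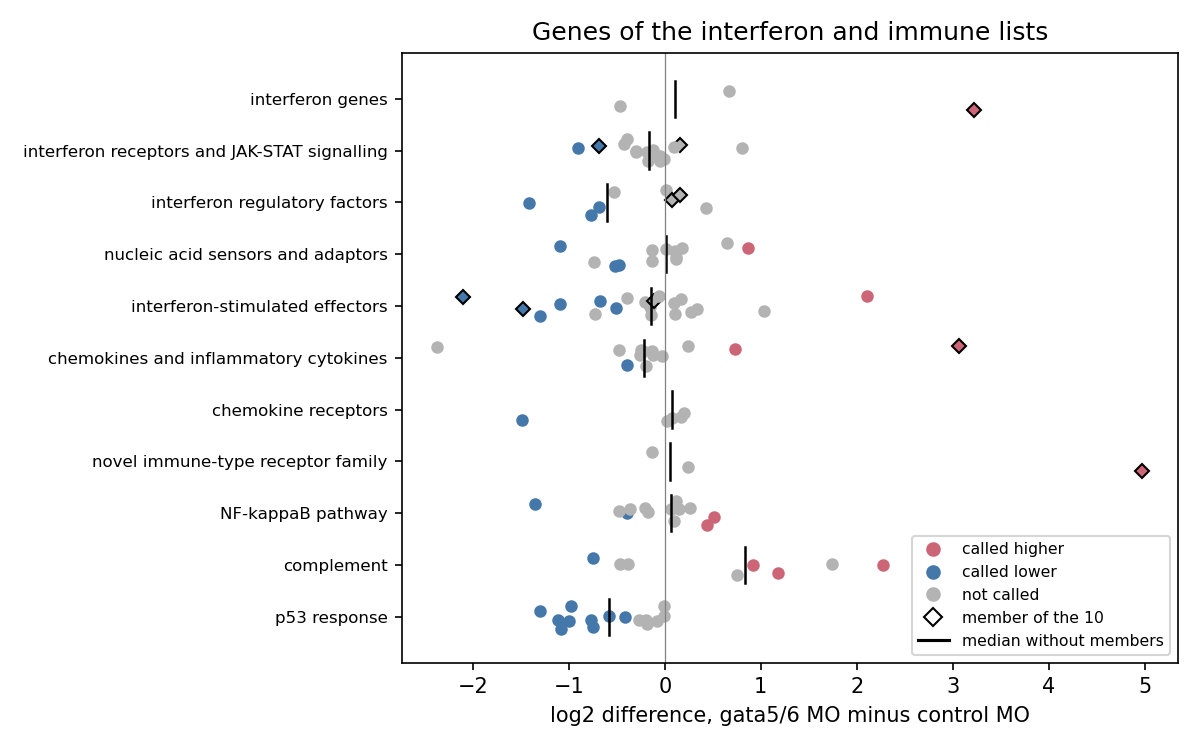
Log2 difference (gata5/6 MO minus control MO) of each tested gene of the 11 interferon, immune and p53 lists, coloured by limma call at an adjusted p under 0.05, with diamonds for genes of the 10-gene set and black bars for the median of each list without them. The interferon regulatory factors have a median of -0.60 and the p53 list one of -0.58 with no gene above 0, whereas the complement list has a median of 0.84.

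Receptor and JAK-STAT genes were mostly not called. Of 15 tested, 1 was lower, none was higher and 14 did not pass, with a median of -0.16. The lower gene was crfb1, which encodes a chain of the receptor for the ifnphi1 product, with a difference of -0.91 (limma, adjusted p = 0.0246). Its call was lost without control replicate 1 (-0.83) and without control replicate 3 (-0.86). The feedback inhibitors socs1a and socs3a, which interferon signalling raises in other settings, differed by -0.43 (limma, adjusted p = 0.0933) and -0.39 (limma, adjusted p = 0.0944). The phosphatase gene ptpn6, which dampens cytokine receptors in blood cells, differed by 0.80 (limma, adjusted p = 0.114). Its other probes were at 1.16, 1.27, 1.52 and -1.01, each above background on 2 arrays or on none. With the mean over probes ptpn6 was called higher at 1.08. With the replicate block ptpn6 was called higher (0.69) and socs1a lower (-0.50). Without control replicate 1, ptpn6 passed at 1.08. Without gata5/6 MO replicate 1, socs1a was at -0.59 and socs3a at -0.57.

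Of 6 interferon regulatory factors tested, 3 fell and none rose. The largest fall was that of irf8, which specifies macrophages in zebrafish, at -1.41 ± 0.09 (SE), or 2.66-fold lower (limma, adjusted p = 0.000502). The interferon regulator irf10 fell by 0.76 on the log2 scale (limma, adjusted p = 0.00329), with another probe at -1.17 and the dimmest, above background on no array, at -0.99. The difference of irf2a was -0.68 (limma, adjusted p = 0.0317), a call lost when any 1 of the control arrays was left out (-0.65 to -0.70).

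Of 13 sensors and adaptors tested, 1 rose, 3 fell and 9 did not pass, with a median of 0.01. The gene that rose, tlr5b, encodes a flagellin receptor and not a nucleic acid sensor. It rose by 0.87 ± 0.12 (SE) (limma, adjusted p = 0.00641). The ubiquitin ligase gene trim25, which activates the RNA sensor RIG-I, was above background on the control arrays alone and at least 1.92-fold higher there (limma, adjusted p = 0.0163), a call lost without control replicate 2 (-1.15). The kinase genes tbk1 and ikbke, whose products activate IRF proteins, differed by -0.47 (limma, adjusted p = 0.0298) and -0.52 (limma, adjusted p = 0.0332). Both kinase calls were lost without any 1 control array or without gata5/6 MO replicate 1, with differences of -0.53 to -0.42 for tbk1 and -0.59 to -0.45 for ikbke. The tbk1 probe used had a control mean of 5.13, far above its other probes at -4.30 and -5.81. Those differed by -0.35 and, above background on no array, by -1.12.

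Of 17 further effectors tested, 1 rose, 4 fell and 12 did not pass, with a median of -0.14. The gene that rose, ifi30a, encodes a lysosomal thiol reductase that is induced by interferon gamma in mammals, and it was 4.30-fold higher (limma, adjusted p = 0.00267), with its other probe at 2.20. The gene parp14rs1, related to a PARP enzyme, fell by 1.09 on the log2 scale (limma, adjusted p = 0.00103), with another probe at -1.09 and the dimmest, above background on no array, at -1.22. The gene ifit8, of a family that binds foreign RNA, differed by -1.30 (limma, adjusted p = 0.0167) and was above background on 1 of 2 knockdown arrays, and its call was lost without control replicate 1 (-1.29). The GTPase gene gbp1 differed by -0.51 (limma, adjusted p = 0.0241), a call lost when any 1 control array was left out (-0.57 to -0.47), and the remaining call was b2m, the light chain of MHC class I, at -0.67 (limma, adjusted p = 0.0399), which the naming rule did not cover.

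Over the 5 lists, 12 called genes were named by rule. The calls of 5 of them, irf8, irf10, parp14rs1, ifi30a and tlr5b, held whichever array was left out. Of these 5, irf8, irf10 and parp14rs1 were lower and ifi30a and tlr5b were higher. With the limited normexp fit irf10 (-0.14), trim25 (-0.11), ifit8 (-0.27) and ikbke (-0.072) were not called.

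**Figure D4:**
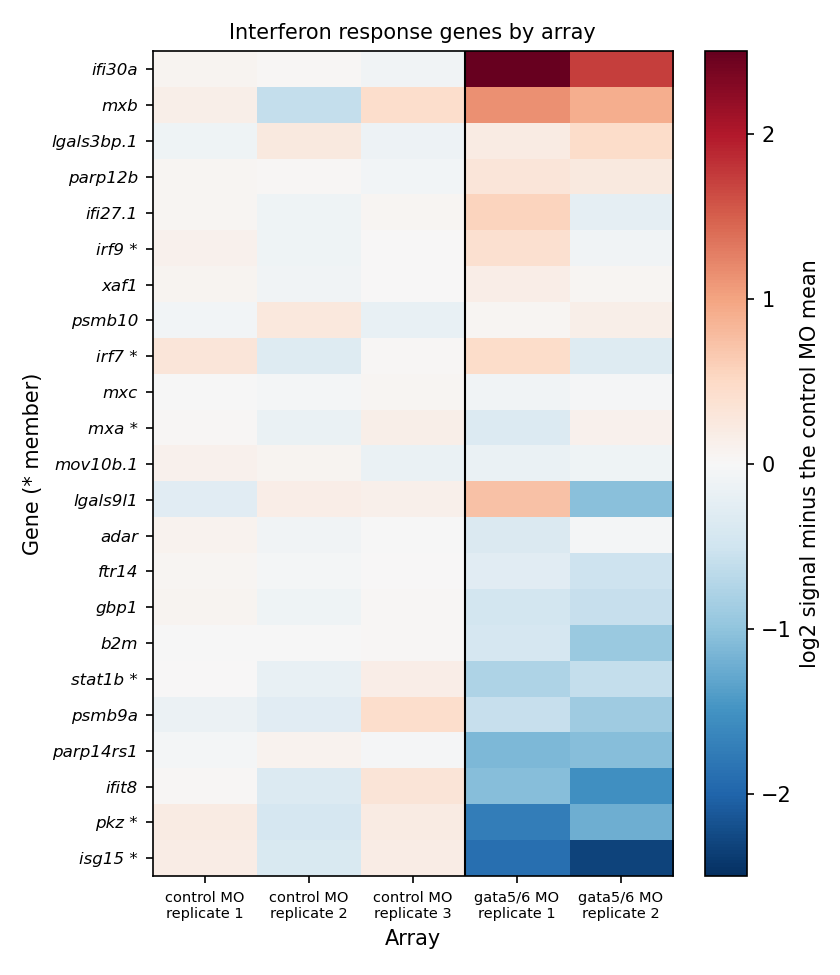
Heat map of the interferon-stimulated effectors tested, with stat1b, irf7 and irf9, on each array (columns), as the log2 signal minus the control MO mean of that gene, with genes sorted by their difference and the genes of the 10-gene set marked by an asterisk. At the top ifi30a has a difference of 2.11 and at the bottom isg15 one of -2.10, and most genes between them show differences under 1.

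Chemokines and their receptors gave little that moved with cxcl20. Of 12 other chemokines and cytokines tested, 1 was higher, 1 was lower and 10 did not pass. The higher gene was cxcl14 at 0.73 (limma, adjusted p = 0.0213), a call lost when any 1 control array was left out (0.69 to 0.80). The lower gene was cxcl12a, the guidance chemokine for migrating germ cells, at -0.39 (limma, adjusted p = 0.0386), a call lost without any 1 control array or without gata5/6 MO replicate 1 (-0.43 to -0.35). Of its other 3 probes, all above background on every array, 2 were at -0.31 and -0.33 and 1 at 0.19, and with the mean over probes cxcl12a was at -0.21 and not called. The growth factor gene tgfb1a differed by -0.47 (limma, adjusted p = 0.0737) and il15 by -0.26 (limma, adjusted p = 0.119), and they passed without gata5/6 MO replicate 2 (-0.59) and without gata5/6 MO replicate 1 (-0.33), respectively. Of 5 chemokine receptors, cxcr3.1 was lower at -1.48, above background on 1 of 2 knockdown arrays (limma, adjusted p = 0.0119), and was not called with the limited normexp fit (-0.29) or with a variance for each group. The genes ackr3b, cxcr4b and cxcr4a differed by 0.20, 0.17 and 0.07 without passing (limma, adjusted p = 0.158, 0.365 and 0.604).

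Genes of the p53 response, which morpholinos are known to raise, were also read. Of 15 tested, 9 were lower (7.17% of all genes tested were), none was higher and 6 did not pass. All 15 differences were negative, the smallest of them at -0.0086, and the median was -0.58. The most significant were the cell death genes bbc3 at -1.08 (limma, adjusted p = 0.00271) and casp8 at -1.29 (limma, adjusted p = 0.00279), the p53 inhibitor gene mdm2 at -1.11 (limma, adjusted p = 0.00328) and tp53inp1 at -0.98 (limma, adjusted p = 0.00494). Their summed signal relative to the 75th percentile was 263.6 to 289.6 in control arrays and 196.5 to 245.8 in gata5/6 MO arrays, without overlap. Without control replicate 3 the number of lower p53 genes was 4. A variance for each group left 1, with casp8, mdm2 and tp53inp1 not called, and the default normexp fit left 0. The part of these genes' response in the lower isg15 was not tested.

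Leukocyte markers are given here because interferon-related genes are also active in blood cells. Of 11 macrophage markers on the array, 7 were tested, with 1 higher and 1 lower. Their summed signal was 5.97 to 6.40 in control arrays and 6.33 to 7.71 in gata5/6 MO arrays. The gene tspan36 made up 56.3% to 65.6% of that sum, so the sum mostly follows that gene and is not taken as a measure of macrophages. Without it the sums were 2.55 to 2.80 in control arrays and 2.23 to 2.65 in gata5/6 MO arrays. The myeloid regulator gene spi1b fell by 2.11 on the log2 scale (limma, adjusted p = 0.000188) and the oxidase gene cybb was higher by 0.70 (limma, adjusted p = 0.0160), a call lost without control replicate 2 (0.62) and control replicate 3 (0.72). Another cybb probe, above background on 2 arrays, had a difference of -0.69. Of the same list, tspan36 and slc7a7 did not pass (limma, adjusted p = 0.0928 and 0.0979), although tspan36 did without gata5/6 MO replicate 2 (0.51). The macrophage genes csf1ra and mpeg1.1 were above background on no array, and neither were havcr1 and cxcr3.2 of that list. Of 8 neutrophil markers 5 were tested, with cebp1 lower at -0.82 (limma, adjusted p = 0.00398; -0.28 and not called with the limited normexp fit) and mmp9 at -0.43 (limma, adjusted p = 0.0243), the latter not called when any 1 control array was left out. The granulocyte genes nccrp1 and cebpa differed by 0.20 and 0.05 (limma, adjusted p = 0.497 and 0.716). The summed signal of the 5 tested neutrophil markers was 7.09 to 7.63 in control arrays and 7.22 to 8.15 in gata5/6 MO arrays. Of that sum cebpa made up 61.6% to 69.2%, and without it the sums were 2.49 to 2.56 and 2.22 to 3.13. The markers lyz and ncf1 were above background on no array.

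Shared leukocyte markers summed to 5.78 to 7.99 in control arrays and 3.67 to 4.92 in gata5/6 MO arrays, without overlap. The gene lcp1 made up 81.4% to 90.9% of that sum, and without it the sums were 0.730 to 0.762 and 0.598 to 0.681. Of the 7 genes 3 had a positive difference, the median was -0.03, and 1 was called, rac2 at -0.60 (limma, adjusted p = 0.0101), a call lost when any 1 control array was left out. The actin-binding gene lcp1 differed by -0.67 (limma, adjusted p = 0.106) and passed at -0.93 without gata5/6 MO replicate 2. The leukocyte genes laptm5 and fcer1gl were not called (limma, adjusted p = 0.110 and 0.117), although laptm5 passed at 0.61 without gata5/6 MO replicate 2. Of 10 lymphocyte and natural killer cell markers 3 were tested, with cd4-1 higher at 0.96 (limma, adjusted p = 0.00305). The genes gata3 and rag2 differed by -0.41 and -0.39 without passing (limma, adjusted p = 0.191 and 0.310), although gata3 passed at -0.71 without gata5/6 MO replicate 2. The markers cd8a, rag1, ikzf1 and il2rga were above background on no array. The summed signal of the 3 tested genes was 0.392 to 0.425 in control arrays and 0.302 to 0.411 in gata5/6 MO arrays, with overlap. The gene gata3 made up 70.0% to 85.0% of that sum. Without it the sums were 0.0588 to 0.0781 in control arrays and 0.0885 to 0.0905 in gata5/6 MO arrays, without overlap. These sums hold only cd4-1 and rag2, which differed in opposite directions, and are not taken as a measure of lymphocytes. The other cd4-1 probe, above background on no array, was at 0.41. The part of a change in blood cells in the levels of ifnphi1, isg15 or nitr8 was not tested.

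The profiles most like those of ifnphi1 and isg15 were sought over the 5 arrays, each gene centred on its control mean, as the smallest root mean square difference in log2. For ifnphi1 they were those of cd81b (0.0658), opn1mw1 (0.0665), smtlb (0.0701), vtnb (0.0727) and si:ch211-117n7.7 (0.0765). None of these is in the interferon or immune lists, and cd81b, opn1mw1 and smtlb were, like ifnphi1, above background in the knockdown group alone, at least 2.09-fold, 1.90-fold and 2.25-fold higher. For isg15 they were those of zgc:162239 (0.0945), rnf152 (0.119), trpa1b (0.129), aanat2 (0.182) and aqp3a (0.191), also outside the lists. These distances compare 5 values and describe the arrays only.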

How the data were processed

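Total RNA of 5 samples was labelled in 1 colour and hybridised to Agilent arrays. The authors deposited Feature Extraction output (10.7.3.1 per the file headers, 10.7.1.1 per the submitters' processing notes), whose processed signal is an intensity after background subtraction and detrending within each array. The authors' deposited value table holds log2 values with a common distribution over its columns, and the sources used here do not state how it was made.

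From the log2 of each processed signal the log2 of its array's 75th percentile was subtracted, and spots of a probe were averaged. Control spots and 52 probes with an outlier spot were left out. Probes entered the test if 1 group or both had them well above background throughout (30618 probes), and a gene was its brightest probe. Symbols came from accessions matched to the RefSeq table of GRCz12tu. No coordinates or sequences are given, since the array was designed on another build and no sequence table was used here. The comparison used lmFit and eBayes of limma 3.58.1 (R 4.3.3), with 3 residual degrees of freedom, two-sided, with Benjamini-Hochberg adjustment over 10792 genes and calls under 0.05. The steps were run on simulated data with the same spread in both groups. That run does not bear on the unequal spread of these arrays. Words such as higher, lower, rose and fell mean gata5/6 MO against control MO.

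For an "at least" fold, each array of the dim group was set to the lowest signal well above background, or to the probe's own signal where that was larger, before its mean was taken. That signal is the lowest over all probes of the array. A probe's own limit can lie higher, so these folds are approximate bounds. The 10 genes and all lists were chosen with earlier results of these data known. Named were up to 4 tested genes with the smallest adjusted p of each list (1 is not reported here and stays in all counts) and the 5 profiles most like ifnphi1 and isg15. The alternatives were normexp background correction (offset 50), quantile normalization, the authors' table, other filters, the mean over probes, trend and robust eBayes, a variance for each group, a block for the replicate number, and each array left out. The normexp settings used each spot's median signal and median local background in place of the processed signal. The number of arrays limits the precision, as does the larger spread between the gata5/6 MO arrays.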

Additional observations from a re-analysis of the deposited data

How the results depend on the processing

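The sign of isg15, pkz, cxcl20 and nitr8 was kept under all alternatives that measured them, while the counts moved. Over all genes (846 higher, 774 lower) a variance for each group gave 290 and 257, and leaving out 1 array gave 371 to 3114 higher and 314 to 2166 lower. Normexp as fitted by default gave 19 and 23 calls over all genes and 0 in either direction in the interferon lists, among the 10 genes and in the p53 list, with ifnphi1 at 0.53. On that setting the differences of cd4-1 (-0.24), fcer1gl (-0.26), ifnphi4 (-0.39), laptm5 (-0.38), nitr9 (-0.20) and ptpn6 (-0.21) changed sign, as did those of irf7 (-0.35) and irf9 (-0.24). That fit took in 5 spots of control replicate 3 that lay below their local background. It also took in 31 spots of gata5/6 MO replicate 2 that lay below theirs. The part of these spots in the lost calls was not tested. With normexp fitted on each array's spots above their local background, chosen after seeing the data, ifnphi1 was at 1.09. With that limited fit 7 genes of the interferon lists and 1 of the 10 genes (isg15) were lower. The limited fit also changed the sign of cebpa (-0.011), il15 (0.042), nitr12 (0.065) and mxa (0.037). On it irf10 (-0.14), trim25 (-0.11), ifit8 (-0.27), ikbke (-0.072), cxcr3.1 (-0.29), cebp1 (-0.28) and ikbkb (-0.03) lost their calls. The dimmer probe, also chosen after seeing the data, put ifnphi1 at -0.73 and stat1b at 0.19.

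In the interferon lists (2 higher, 11 lower) the mean over probes gave 4 higher, no filter gave 6 lower and a variance for each group gave 3 lower, and leaving out 1 array gave 2 to 6 higher and 4 to 21 lower. Of the 10 genes (3 higher, 3 lower), 0 were lower with a variance for each group. None was higher when probes had to be above background on all 5 arrays, which by construction removes ifnphi1, cxcl20, nitr8 and pkz and gave 0. Leaving out 1 array gave 3 to 4 higher and 1 to 3 lower, and ifnphi1 at 3.18 to 3.25. A variance for each group left 1 lower p53 gene. The mean over probes put cebpa at -0.026. Leaving out 1 array moved nccrp1 between -0.11 and 0.50 and nitr9 between -0.061 and 0.54, negative in both cases without gata5/6 MO replicate 1. With 1 knockdown array left, that array is assumed to vary like the controls. Apart from these changes by construction, and from the shrinkage that the normexp offset brings, the cause was not tested.

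With the replicate number as a block, 937 genes were higher and 847 lower, and in the interferon lists 6 were higher and 14 lower. Deviations of same-numbered arrays correlated at 0.123 and 0.200, but with only 2 such pairs the numbers are not taken to pair the samples. Slide could not be used as a block. Signals near 9.49 to 12.3 intensity units limit what can be seen for dim genes such as rsad2.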

Other observations

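Immune genes outside the interferon pathway are given here as values. Of 8 complement genes tested, 3 rose, 1 fell and 4 did not pass, with a median difference of 0.84, beside 0.04 over all genes. The complement inhibitor gene cfh was 4.83-fold higher (limma, adjusted p = 8.14e-05), and c8a, a component of the membrane attack complex, rose by 1.17 (limma, adjusted p = 0.000597). The alternative pathway gene cfb rose by 0.92 (limma, adjusted p = 0.00415). These calls held whichever array was left out. The lectin gene mbl2 differed by -0.75 (limma, adjusted p = 0.0270), a call lost without any 1 control array or without gata5/6 MO replicate 1 (-0.81 to -0.61).

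Of 13 NF-kappaB pathway genes tested, 2 were higher, 2 were lower and 9 did not pass, with a median of 0.07. The kinase gene ikbkb was above background on the control arrays alone and at least 1.74-fold higher there (limma, adjusted p = 0.00605). The transcription factor gene rel differed by 0.51 (limma, adjusted p = 0.0135) and the inhibitor gene nfkbib by 0.44 (limma, adjusted p = 0.0345), both not called when any 1 control array was left out. The kinase gene chuk differed by -0.39 (limma, adjusted p = 0.0478), a call lost without any 1 control array or without gata5/6 MO replicate 1 (-0.45 to -0.35).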
